A study of Mus musculus with 5 samples.

Results

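The interferon response and MHC class I genes are 42 genes, chosen by symbol, that cover the interferon receptors, the transcription factors behind them, RNA and DNA sensors, interferon-induced effectors and the chains and peptide suppliers of MHC class I. They were found by matching the Ensembl identifiers of the expression files to the annotation of mouse genome build NCBIM37. All 42 were present, under 43 identifiers because *Psmb9* has 2, and all 42 were among the 16286 of 34615 symbols that entered the test, whose FPKM averaged 1 or more over the 5 mice. FPKM is the number of sequenced fragments for each kilobase of exon, relative to the depth of the library, so it compares levels between genes per length. RNA was sequenced from brain microvascular fragments, pulled from collagenase-treated brain with beads that carry an antibody to the endothelial surface protein PECAM1. The mice were males of the C57BL6 background aged 26 to 38 weeks, 3 wildtype littermate controls (WT) and 2 heterozygous Ins2-AKITA mice (Ins2AKITA), with 1 library per mouse. The *Ins2* mutation misfolds insulin 2 in the beta cells of the pancreas and leaves the mice with long-standing high blood glucose. It lies in the coding sequence, so the *Ins2* level in brain vessels does not check the genotype.

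Cells that sense viral RNA or DNA secrete type I interferons, which bind a receptor made of IFNAR1 and IFNAR2 and activate a complex that holds STAT2 and IRF9. That complex binds the interferon-stimulated response element (ISRE) in the promoters of antiviral genes, while interferon gamma acts through IFNGR1 and IFNGR2 on the related gamma-activated sequence (GAS). MHC class I molecules, a heavy chain held by beta 2 microglobulin, present peptides to CD8 T cells. Brain endothelium and microglia are known to carry most of the class I of the healthy brain.

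None of the 42 genes passed the test between genotypes, but 32 of them (76.2%) had a lower mean in the Ins2AKITA mice, against 53.5% of all genes tested. The median log2 fold change over the 42 genes was -0.36, beside -0.03 over all genes. *H2-K1* and *H2-D1*, the classical class I heavy chains, *Ifnar2*, the receptor chain, *Irf7*, the factor that amplifies interferon production, and *Xaf1*, an interferon-induced gene linked to cell death, were among those with both Ins2AKITA mice below all WT mice. *Tapbp*, the chaperone that bridges class I to the peptide transporter, was the 1 gene with both Ins2AKITA mice above all WT mice. That is 2.38% of the 42 genes, against 9.24% of all genes tested. Both Ins2AKITA mice lay below all WT mice in 10 of the 42 (23.8%), against 10.3% of all genes tested. The test was limma on log2(FPKM + 1) with Benjamini-Hochberg adjustment, and the smallest adjusted p among the 42 genes was 0.896. Of all genes tested, 4 (0.0246%) had an adjusted p under 0.05 by limma, all 4 lower in Ins2AKITA. An exact two-sided permutation test over the 10 ways to draw 2 of 5 mice cannot go below 0.1 here.

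Depth limits the low members of the group. The fragments behind each library, estimated from the steps between low FPKM values, numbered between 1172705 and 2854100 in WT mice and 1126052 and 1280935 in Ins2AKITA mice. An interferon-induced gene such as *Isg15* therefore rested on about 1 to 7 fragments per mouse, and *B2m* on about 48.0 to 179. The vessel preparation held endothelial markers (*Pecam1*, *Cldn5*, *Cdh5*, *Flt1* and *Tek*), whose summed FPKM was 364, 517 and 287 among WT mice, next to 311 and 248 among Ins2AKITA mice. It also held glial and neuronal RNA, with summed astrocyte markers of 1279, 1710 and 1920 among WT mice, next to 2284 and 2581 among Ins2AKITA mice, all 4 of the markers having a higher mean in Ins2AKITA. Microglial markers summed to 42.1, 78.1 and 82.5 among WT mice, next to 75.5 and 70.4 among Ins2AKITA mice. All 5 of them had log2 fold changes above 0, from 0.06 to 0.32, none with an unadjusted limma p under 0.05. Pericyte markers, 4 of 5 with a lower mean in Ins2AKITA, summed to between 184 and 234 in WT and to 208 and 162 in Ins2AKITA. The erythroid markers *Hbb-b1*, *Hba-a1* and *Alas2* had log2 fold changes of -0.95, -0.63 and -1.09, none with an unadjusted limma p under 0.05, and summed to 44.9, 51.8 and 26.5 in WT and to 27.5 and 19.8 in Ins2AKITA. Markers of T and NK cells summed to between 0 and 0.708 FPKM in every mouse, with *Cd3g* and *Nkg7* at 0 throughout, and those of B cells to at most 1.84. Of the neutrophil markers, *S100a8*, *Ly6g* and *Mmp8* were at 0 in every mouse and *S100a9* was above 0 only in WT replicate 2. In bulk RNA, fewer cells of a type and less RNA per cell cannot be told apart.

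The promoters were searched for the elements that the interferon-activated complexes bind. RefSeq promoter sequences, on mouse build GRCm38.p6, were available for 38 of the 42 and not for *Usp18*, *Rtp4*, *Zbp1* and *Tap2*. The ISRE core was searched as GAAANNGAAA and the GAS as TTCNNNGAA on both strands of the 250 bases before the start. The ISRE core occurred in 12 of 38 genes (31.6%), against 3.46% of the 27025 genes in the table, and the GAS in 7 of 38 (18.4%), against 8.13%. The list was chosen for interferon response, so higher shares than over all genes can follow from that choice. By role, the ISRE core lay in 9 of 18 induced effectors, in 2 of 4 class I chains (*B2m* and *H2-T23*), in 1 of 6 transcription factors (*Stat2*), and in 0 of 4 receptors, 0 of 2 sensors and 0 of 4 peptide suppliers. A match is a description of letters and not a bound site. An exact core leaves out sites with other letters, so its absence does not show that an ISRE is absent. The upstream sequences of *Isg15*, whose protein is attached to other proteins like ubiquitin, *Ifit1*, which binds foreign RNA, *Gbp3*, a guanylate-binding GTPase, and *B2m*, the class I light chain, are shown as examples, 5′ to 3′ on the strand of the gene, with capitals for the ISRE core on either strand. Where matches overlap, as in *Isg15* and *Gbp3*, the capitals run together, and for *Gbp3* the listed start whose upstream bases hold the core is shown. They lie at chr4:156200819-156201068 (minus strand), chr19:34640639-34640888 (plus), chr3:142559794-142560043 (plus) and chr2:122147437-122147686 (plus).
Isg15: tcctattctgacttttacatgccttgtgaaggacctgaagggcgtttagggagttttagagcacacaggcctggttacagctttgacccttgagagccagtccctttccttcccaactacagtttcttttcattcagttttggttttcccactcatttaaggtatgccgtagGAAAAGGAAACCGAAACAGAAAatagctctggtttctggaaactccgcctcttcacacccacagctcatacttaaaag
Ifit1: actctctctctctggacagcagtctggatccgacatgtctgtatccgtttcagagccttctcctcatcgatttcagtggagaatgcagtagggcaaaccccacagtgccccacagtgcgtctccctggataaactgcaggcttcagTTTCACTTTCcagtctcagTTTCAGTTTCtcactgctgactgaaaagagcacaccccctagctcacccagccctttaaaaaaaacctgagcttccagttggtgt
Gbp3: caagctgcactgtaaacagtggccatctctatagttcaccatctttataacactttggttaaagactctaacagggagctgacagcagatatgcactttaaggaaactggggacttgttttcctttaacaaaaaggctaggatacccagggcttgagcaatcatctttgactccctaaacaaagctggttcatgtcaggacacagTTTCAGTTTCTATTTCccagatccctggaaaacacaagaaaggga
B2m: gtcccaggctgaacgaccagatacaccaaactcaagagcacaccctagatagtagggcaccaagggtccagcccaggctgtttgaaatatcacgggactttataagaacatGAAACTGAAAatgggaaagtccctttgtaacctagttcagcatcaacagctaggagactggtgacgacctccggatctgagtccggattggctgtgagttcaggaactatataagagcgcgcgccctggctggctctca

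*Gbp3* was the 1 gene of the 12 with an ISRE core whose Ins2AKITA values both lay below all WT values. Of these 12, 10 had a lower mean in Ins2AKITA, with a median log2 fold change of -0.43. Of the 26 without the core, 19 had a lower mean, with a median of -0.29, and 9 had both Ins2AKITA values below all WT values. Over all genes tested, 53.5% had a lower mean and 10.3% had both Ins2AKITA values below all WT values. *Isg15*, with 3 matches, and *Ifit1*, with 2, had log2 fold changes of 0.11 and 0.05.

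*B2m*, *H2-K1* and *H2-D1* had the highest mean FPKM of the 42 genes, and all 4 class I chains had a lower mean in Ins2AKITA, with a median log2 fold change of -0.47. *B2m*, on chromosome 2 (121973422 to 121978819, plus strand), was measured at 109, 76.3 and 98.7 FPKM in the WT mice and at 67.1 and 80.0 in the Ins2AKITA mice. The groups overlapped for this gene, since Ins2AKITA replicate 2 lay above WT replicate 2. Mean FPKM was 94.8 ± 16.9 (SD, n = 3) and 73.6 ± 9.15 (SD, n = 2), with a log2 fold change of -0.35 (SE 0.22), or -0.23 without Ins2AKITA replicate 1.

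*H2-K1* (chromosome 17, 34132962 to 34137278, minus strand) was at 72.9, 46.6 and 45.4 FPKM among WT mice, next to 38.4 and 23.2 among Ins2AKITA mice. Both Ins2AKITA mice lay below the lowest WT mouse, but WT replicate 1 stood well above the other two. The means of 55.0 ± 15.6 (SD, n = 3) and 30.8 ± 10.8 (SD, n = 2) differed by 1.79-fold, and the log2 fold change was -0.82 (SE 0.31), or -0.47 without Ins2AKITA replicate 2. *H2-D1* (chromosome 17, 35399675 to 35404444, plus strand) had 47.0, 50.2 and 57.7 FPKM in WT and 34.0 in both Ins2AKITA mice. The 2 Ins2AKITA mice were nearly equal and below all WT mice, with means of 51.6 ± 5.47 (SD, n = 3) and 34.0 ± 0.0149 (SD, n = 2) and a log2 fold change of -0.58 (SE 0.18). Without adjustment the limma p was 0.0377 for *H2-K1* and 0.0181 for *H2-D1*, the adjusted p was 0.896 for both, and the exact permutation p was 0.1 for both, the smallest it can be.

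*H2-K1* and *H2-D1* are close paralogs whose reads can be assigned to either gene, and how the authors' counting split such reads is not given in the sources used here. Their promoters share stretches too, which is why the pair is shown. Capitals mark runs of at least 20 bases found unbroken in both sequences, 3 runs of up to 47 bases that cover 108 of 250 bases (43.2%). They lie at chr17:34000334-34000583 (minus strand) and chr17:35262844-35263093 (plus strand) of GRCm38.p6, 5′ to 3′ on the strand of each gene. Neither holds the ISRE core as searched, which does not show that either lacks an ISRE.
H2-K1: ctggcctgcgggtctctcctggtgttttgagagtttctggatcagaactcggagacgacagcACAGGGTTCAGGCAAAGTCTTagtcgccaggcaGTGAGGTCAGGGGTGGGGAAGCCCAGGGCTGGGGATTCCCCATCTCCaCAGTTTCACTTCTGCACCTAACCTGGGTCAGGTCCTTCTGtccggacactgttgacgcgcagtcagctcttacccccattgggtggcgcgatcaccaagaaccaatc
H2-D1: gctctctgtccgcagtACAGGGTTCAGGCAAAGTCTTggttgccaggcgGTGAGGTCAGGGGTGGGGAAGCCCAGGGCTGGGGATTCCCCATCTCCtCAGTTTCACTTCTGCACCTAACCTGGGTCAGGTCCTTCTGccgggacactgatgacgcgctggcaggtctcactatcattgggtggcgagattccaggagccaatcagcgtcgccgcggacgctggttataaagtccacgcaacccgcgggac

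*H2-T23* encodes the nonclassical chain Qa-1, a ligand of inhibitory receptors on NK cells. It had 19.9, 20.6 and 14.7 FPKM among WT mice, next to 16.4 and 17.2 among Ins2AKITA mice. Its Ins2AKITA values lay inside the WT range, and its log2 fold change was -0.11 (95% interval -0.67 to 0.45). The FPKM of the 4 chains summed to 249, 194 and 217 in WT and to 156 and 154 in Ins2AKITA, so that the sums of the genotypes did not overlap.

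**Figure D1:**
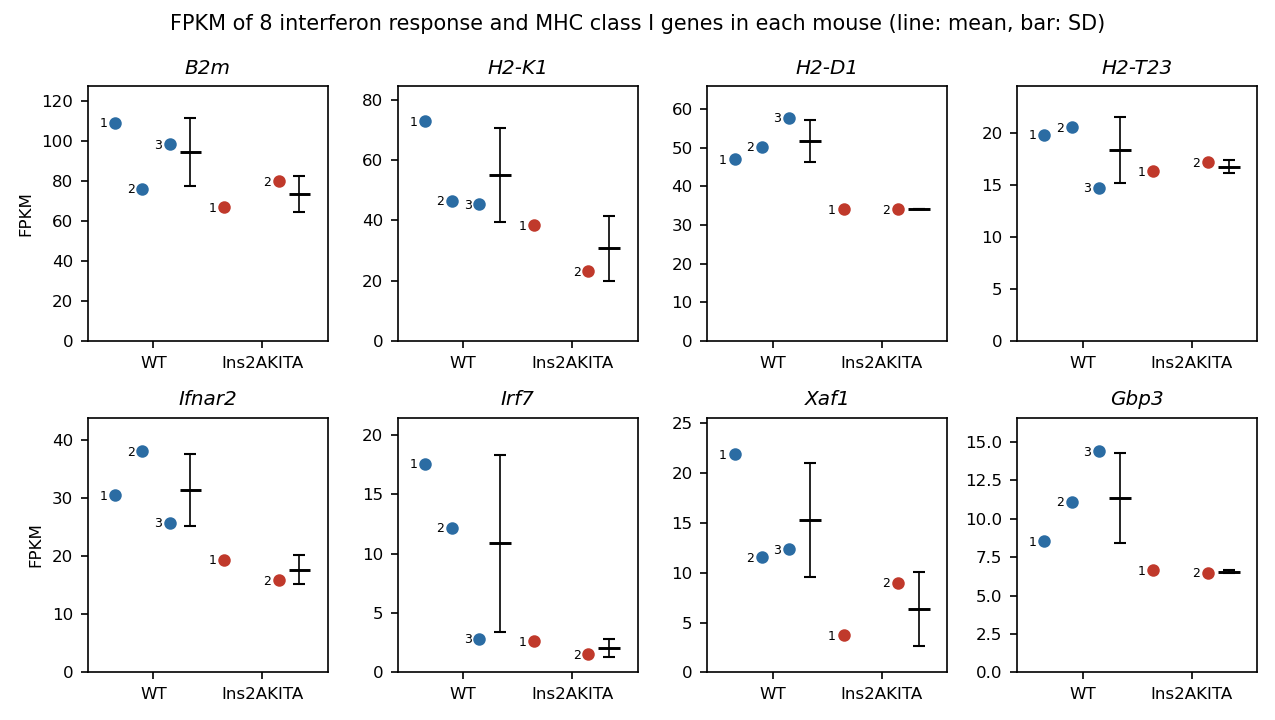
FPKM (vertical axis, linear, from 0) of 8 genes in each mouse, WT in blue and Ins2AKITA in red, with the replicate number beside each point, the group mean as a line and the SD as a bar (n = 3 and 2). Both Ins2AKITA points lie below all WT points for H2-K1, H2-D1, Ifnar2, Irf7, Xaf1 and Gbp3, while the groups overlap for B2m and H2-T23.

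The class I levels were set beside those of the endothelial markers, which belong to the cells that the beads select. All 5 of those markers had a lower mean in Ins2AKITA, none with an adjusted p under 0.05 (*Cdh5* had an unadjusted limma p of 0.0449). As a percentage of the endothelial sum, *H2-D1* stood at 12.9, 9.72 and 20.1 in the WT mice and at 10.9 and 13.7 in the Ins2AKITA mice, and *H2-K1* at 20.04, 9.01 and 15.8 in the WT mice and at 12.4 and 9.33 in the Ins2AKITA mice. The genotypes overlapped for both genes on that scale. Their means stayed lower in Ins2AKITA, at 15.0 in WT and 10.8 in Ins2AKITA for *H2-K1* and at 14.2 and 12.3 for *H2-D1*. For *H2-K1* only WT replicate 2, which had the highest endothelial sum, was not above both Ins2AKITA mice. The means of the other class I chains were no longer lower in Ins2AKITA, at 26.4 in WT and 26.9 in Ins2AKITA for *B2m* and at 4.86 and 6.10 for *H2-T23*. Of the 42 genes, 3 (*Ifnar2*, *Irf7* and *Ifi35*) still had both Ins2AKITA values below all WT values after this division, which was chosen after the values had been seen. The share over all genes tested was 2.70%. Only *Tapbp* had both Ins2AKITA values above all WT values on that scale, against 17.8% of all genes tested. The part of endothelial, astrocyte, pericyte or blood content in the fold changes of the 42 genes was not tested beyond this.

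**Figure D2:**
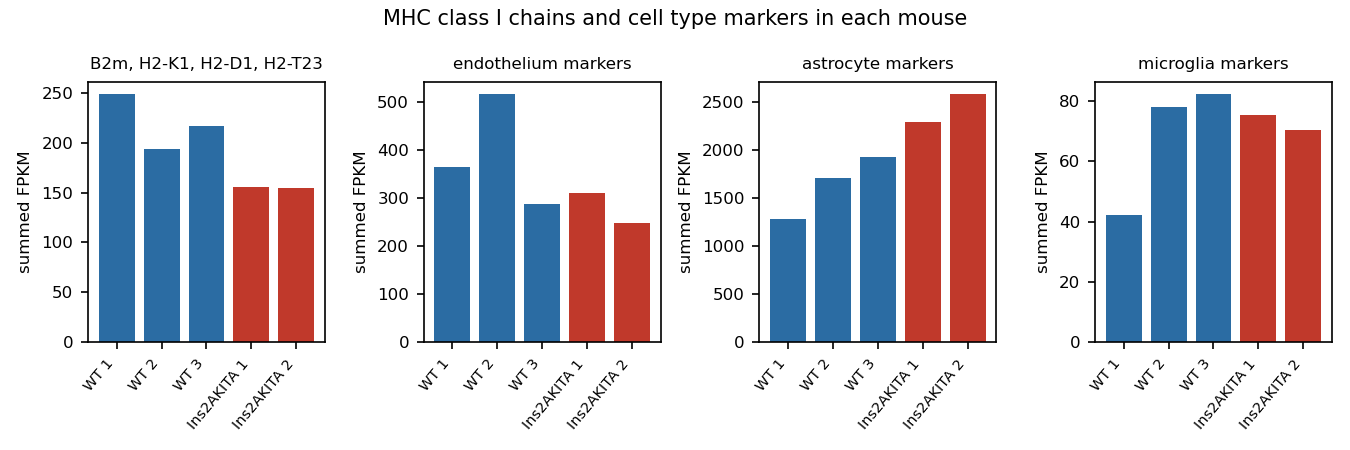
Summed FPKM (vertical axes, linear, from 0) per mouse of the 4 class I chains and of the marker lists of endothelium, astrocytes and microglia, with 1 bar per mouse, WT in blue and Ins2AKITA in red. The class I sums of the Ins2AKITA mice (156 and 154) are below those of the WT mice, the astrocyte sums are above them, and the endothelial and microglial sums overlap.

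Peptides reach class I through the immunoproteasome (*Psmb8* and *Psmb9*), the transporter (*Tap1* and *Tap2*) and tapasin (*Tapbp*). Of these 5 genes, 3 had a lower and 2 a higher mean in Ins2AKITA. *Tapbp* (chromosome 17, 34052844 to 34066235, plus strand) had 32.0, 43.4 and 40.0 FPKM among WT mice, next to 44.5 and 50.5 among Ins2AKITA mice. Both Ins2AKITA mice lay above the highest WT mouse, by a narrow margin in replicate 1, and the log2 fold change was 0.31 (SE 0.21, limma p 0.190 without adjustment), or 0.18 without WT replicate 1. Over all genes tested, 9.24% had both Ins2AKITA values above all WT values, and *Tapbp* was the 1 of 42 genes (2.38%) that did. *Tapbp* overlaps *Zbtb22* on the same strand, which had a mean of 18.4 FPKM. *Tap2* had a log2 fold change of -0.48 (SE 0.35), which ranged from -0.25 without WT replicate 2 to -0.74 without WT replicate 3, and *Tap1* one of -0.43 (SE 0.32), both with groups that overlapped. *Psmb9*, whose gene overlaps *Tap1* on the opposite strand, had a log2 fold change of -0.44 (SE 0.58). *Psmb8* had 12.8, 7.97 and 6.47 FPKM among WT mice, next to 6.02 and 13.2 among Ins2AKITA mice, so its Ins2AKITA mice were the lowest and the highest of the 5, with a log2 fold change of 0.03 (SE 0.42).

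Among the receptors, *Ifnar2* (chromosome 16, 91373028 to 91419696, plus strand), the chain of the type I receptor that binds interferon most tightly, had 30.5, 38.1 and 25.8 FPKM among WT mice, next to 19.4 and 15.9 among Ins2AKITA mice. The groups did not overlap, and the means of 31.5 ± 6.18 (SD, n = 3) and 17.7 ± 2.505 (SD, n = 2) differed by 1.78-fold. The log2 fold change was -0.79 (SE 0.24), with a limma p of 0.0153 without adjustment, the smallest of the 42 genes, an adjusted p of 0.896 and an exact permutation p of 0.1. *Ifnar2* overlaps *Il10rb*, an interleukin 10 receptor chain on the same strand with a mean of 16.7 FPKM, so some of its fragments may be shared. Its partner *Ifnar1* ranged from 14.0 to 35.2 FPKM in WT and had 31.1 and 16.2 in Ins2AKITA, a log2 fold change of -0.10 (95% interval -1.19 to 0.99). The interferon gamma receptor chains had log2 fold changes of 0.03 (*Ifngr1*, 95% interval -0.55 to 0.60) and 0.26 (*Ifngr2*, 95% interval -0.75 to 1.27).

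All 6 transcription factors had a lower mean in Ins2AKITA, with a median log2 fold change of -0.19. *Irf7* (chromosome 7, 148448605 to 148452380, minus strand), itself induced by interferon, had 17.6, 12.2 and 2.84 FPKM among WT mice, next to 2.61 and 1.54 among Ins2AKITA mice. Both Ins2AKITA mice were below all WT mice, yet WT replicate 3 stood next to Ins2AKITA replicate 1 and far from the other WT mice. Its log2 fold change of -1.69 (SE 0.69, limma p 0.0467 without adjustment, exact permutation p 0.2) was the lowest of the 42 genes. *Irf7* overlaps *Phrf1* on the opposite strand, with a mean of 27.9 FPKM, and whether strand was used in counting is not given in the sources used here.

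*Irf3*, the constitutive factor that starts interferon transcription, had 33.3, 35.1 and 31.7 FPKM among WT mice, next to 31.3 and 20.4 among Ins2AKITA mice. The groups did not overlap, but Ins2AKITA replicate 1 lay within 1 WT SD (1.69) of the lowest WT mouse, and the log2 fold change was -0.39 (SE 0.24), or -0.09 without Ins2AKITA replicate 2. *Irf1*, which drives class I and interferon gamma responses, *Irf9* and *Stat2*, the DNA-binding and activating parts of the type I complex, and *Irf8*, a factor of microglia and other myeloid cells, had log2 fold changes between -0.21 (SE 0.37 for *Irf1*) and -0.11. Their groups overlapped in every case. *Irf9* overlaps *Rnf31* on the same strand, which had a mean of 15.5 FPKM, so some *Irf9* fragments may be shared.

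The sensors *Ddx58* (RIG-I) and *Ifih1* (MDA5) recognize viral RNA and *Zbp1* recognizes nucleic acids in the Z form. *Ddx58* had a log2 fold change of -0.42 (SE 0.37), which was -0.76 without Ins2AKITA replicate 1 and -0.089 without Ins2AKITA replicate 2. *Ifih1* had one of -0.06 (SE 0.34) and *Zbp1* of 0.26 (SE 0.68). *Zbp1* was listed at 0 in WT replicate 1 and at 1.44 to 2.72 FPKM in the other 4 mice. None of the 3 sensors separated the genotypes.

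The largest role group, 20 induced effectors and regulators, held 15 genes with a lower mean in Ins2AKITA and 5 with a higher one, with a median log2 fold change of -0.45. *Xaf1* (chromosome 11, 72115131 to 72127235, plus strand) had 21.9, 11.5 and 12.4 FPKM among WT mice, next to 3.74 and 8.99 among Ins2AKITA mice. The genotypes did not overlap, and the means of 15.3 ± 5.73 (SD, n = 3) and 6.37 ± 3.71 (SD, n = 2) differed by 2.40-fold. Its log2 fold change was -1.18 (SE 0.43), with a limma p of 0.0314 without adjustment, an adjusted p of 0.896 and an exact permutation p of 0.1. Without Ins2AKITA replicate 1 the log2 fold change was -0.65.

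*Gbp3* (chromosome 3, 142223016 to 142236173, plus strand) had 8.55, 11.1 and 14.4 FPKM among WT mice, next to 6.64 and 6.47 among Ins2AKITA mice. The genotypes did not overlap, and the log2 fold change was -0.68 (SE 0.29, limma p 0.0547 without adjustment). *Oasl2*, related to the synthetases that activate RNase L, had 8.18, 10.2 and 8.89 FPKM among WT mice, next to 6.66 and 4.57 among Ins2AKITA mice. The 3 WT mice were close to each other for this gene, and the log2 fold change was -0.62 (SE 0.28, limma p 0.0652 without adjustment), or -0.39 without Ins2AKITA replicate 2.

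*Ifi35* had 18.1, 6.66 and 3.40 FPKM among WT mice, next to 3.35 and 1.37 among Ins2AKITA mice. WT replicate 3 and Ins2AKITA replicate 1 were nearly equal, as they were for *Irf7*, and the log2 fold change was -1.43 (SE 0.66), or -0.85 without WT replicate 1. *Ifitm3*, a membrane protein that blocks entry of enveloped viruses, had 39.8, 33.4 and 25.7 FPKM among WT mice, next to 25.5 and 24.2 among Ins2AKITA mice, about 13 to 33 estimated fragments per mouse. Its groups were separate by less than 1 FPKM, and its log2 fold change was -0.37 (SE 0.24), or -0.23 without WT replicate 1. *Ifitm2*, from the same family, had a log2 fold change of -0.50 (SE 0.35), which was -0.21 without WT replicate 1 and -0.78 without WT replicate 2. The log2 fold change of *Trim25*, the ubiquitin ligase that acts on RIG-I, was -0.21 (SE 0.33), and the groups of both genes overlapped.

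Several genes that are usually among the first read as an interferon signature gave no direction. *Ifit3* had 11.8, 11.96 and 11.1 FPKM among WT mice, next to 8.17 and 15.4 among Ins2AKITA mice, and *Isg15* had 1.62, 2.85 and 4.64 among WT mice, next to 3.34 and 2.95 among Ins2AKITA mice. In each of them the Ins2AKITA mice lay on either side of the WT mice or inside their range. *Ifit2* had the highest log2 fold change of the 42 genes, 0.43 (95% interval -0.38 to 1.24). *Rsad2*, which makes an antiviral nucleotide, had 11.8 FPKM in WT replicate 1 and between 1.28 and 3.65 in the other 4 mice. *Bst2*, which tethers budding viruses to the cell, had a log2 fold change of -1.04 (SE 0.55) on about 1 to 7 fragments per mouse. The other induced genes (*Ifitm1*, *Oas1a*, *Gbp2*, *Usp18*, *Rtp4*, *Ifit1*, *Sp100* and *Ifi44*) had log2 fold changes from -1.05 to 0.42, and none of them separated the genotypes. *Ifitm1* and *Oas1a*, the lowest of them at -1.05 and -0.84, were each listed at 0 in 1 Ins2AKITA mouse.

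**Figure D3:**
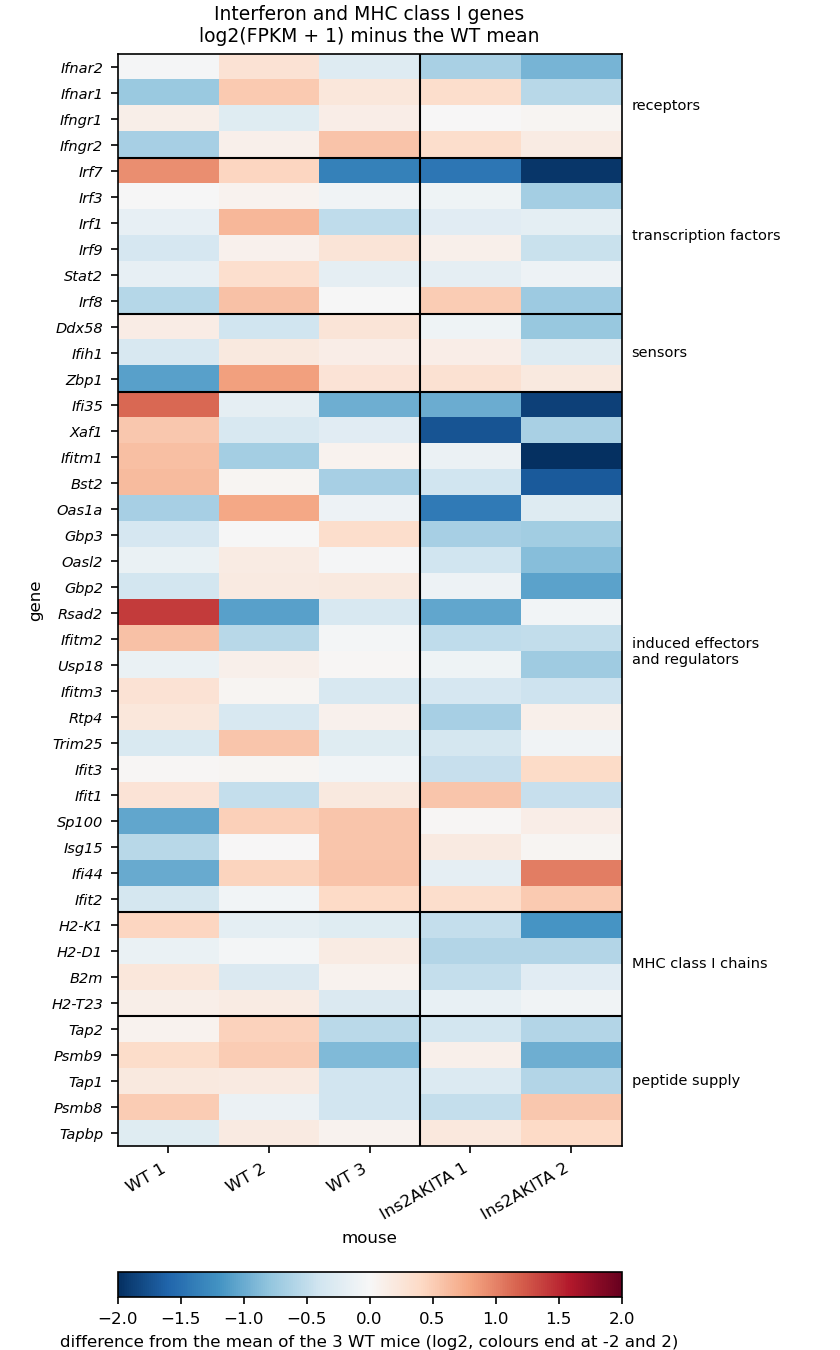
Log2(FPKM + 1) of each of the 42 genes minus the mean of the 3 WT mice, 1 column per mouse and 1 row per gene, grouped by role, with blue for below and red for above the WT mean. The column of Ins2AKITA replicate 2 holds the lowest value of the 5 mice in 19 genes, and the WT columns differ from each other in rows such as Rsad2, Irf7 and Ifi35.

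Counted over the 42 genes, both Ins2AKITA values lay below all WT values in 10 (23.8%), against 10.3% of all genes tested. The 10 genes were *Ifnar2*, *Irf3*, *Irf7*, *Oasl2*, *Ifitm3*, *Ifi35*, *Xaf1*, *Gbp3*, *H2-K1* and *H2-D1*. At a limma p under 0.05 without adjustment there were 5 genes (11.9%), *Ifnar2*, *H2-D1*, *Xaf1*, *H2-K1* and *Irf7*, against 4.46% of all genes. All 5 had a lower mean in Ins2AKITA, where the share over all genes was 2.93%. The 42 genes can vary together within a mouse, so these shares describe the list in these 5 libraries. Without WT replicate 1, 3 of the 42 genes lay under 0.05, beside 597 of all 16286. Without WT replicate 2 there were 2, beside 507, and without WT replicate 3 there were 5, beside 1402. *Irf7* no longer lay under 0.05 with no filter on low values (limma p 0.0534) or with a minimum FPKM of 5 (0.0569).

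The shift was not even across mice. Ins2AKITA replicate 2 held the lowest of the 5 values in 19 of the 42 genes (45.2%), against 23.2% of all genes. Ins2AKITA replicate 1 held it in 8 (19.0%), against 16.4% of all genes. Without Ins2AKITA replicate 2 the median log2 fold change of the 42 genes was -0.21, and without Ins2AKITA replicate 1 it was -0.45. WT replicate 1 held the lowest value in 9 (21.4%), WT replicate 2 in 4 (9.52%) and WT replicate 3 in 2 (4.76%). Over all genes these shares were 21.1%, 15.6% and 17.1%. The highest value lay in WT replicates 1, 2 and 3 for 12, 15 and 9 genes (28.6%, 35.7% and 21.4%), against 28.4%, 21.2% and 11.1% of all genes. Ins2AKITA replicates 1 and 2 held the highest value for 1 and 5 genes (2.38% and 11.9%), against 16.8% and 22.4% of all genes. The WT mice differed among themselves by more than 2-fold in 16 of the 42 genes, with WT replicate 1 highest in 6, WT replicate 2 in 6 and WT replicate 3 in 4, without counting *Zbp1*, listed at 0 in WT replicate 1. The median ratio of the highest to the lowest WT mouse was 1.89 over the 42 genes and 1.62 over all genes. For *Rsad2*, *Ifi44*, *Irf7* and *Ifi35* that ratio was 9.18, 9.10, 6.18 and 5.32.

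**Figure D4:**
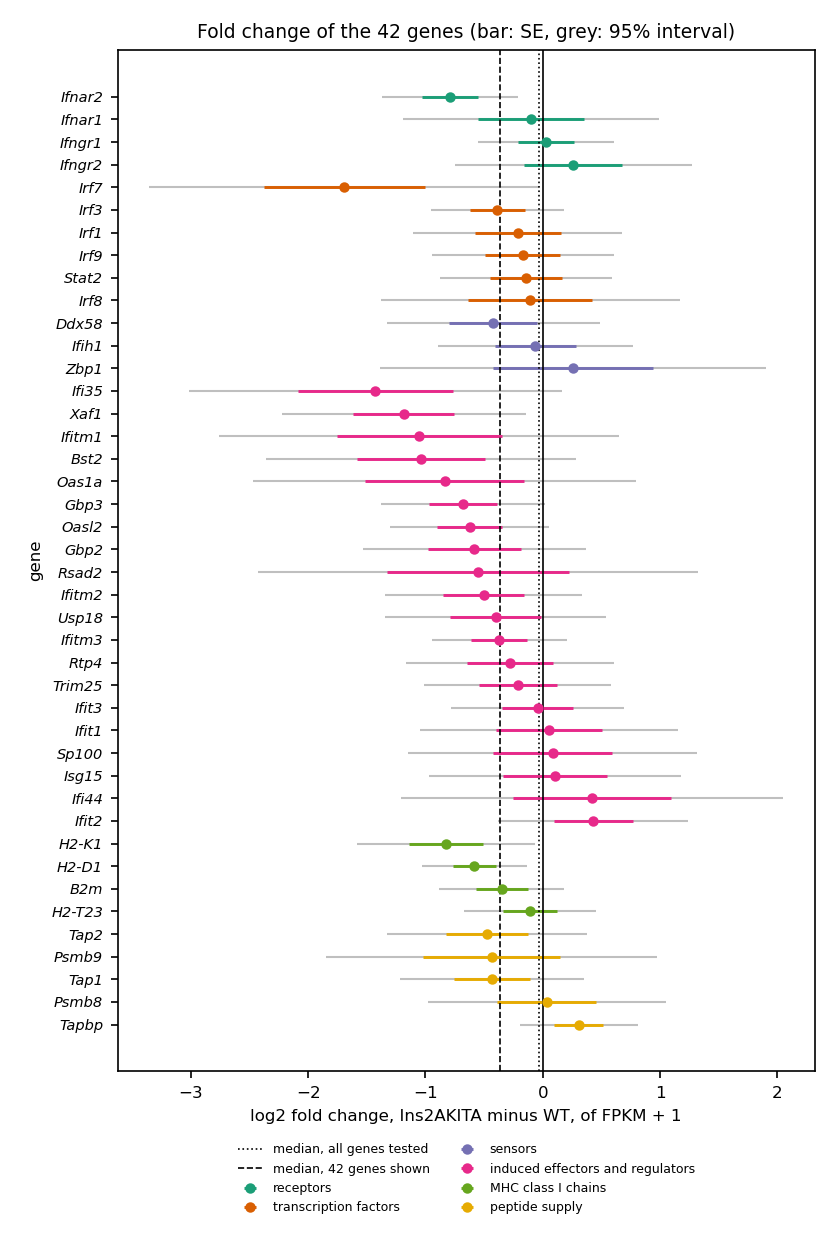
Log2 fold change (horizontal axis, Ins2AKITA minus WT, of FPKM + 1) of each of the 42 genes, coloured by role, with the limma SE as a coloured bar and the 95% interval in grey, before adjustment for the number of genes. The dashed line is the median of the 42 genes (-0.36) and the dotted line that of all genes tested (-0.03). The 95% intervals of Ifnar2, Irf7, Xaf1, H2-K1 and H2-D1 lie below 0 and the others include 0.

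Other genes of the same pathways were read from a list of 57 symbols outside the 42, of which 53 were found and 41 tested. None had an adjusted p under 0.05, 2 had an unadjusted limma p under 0.05, both lower in Ins2AKITA, and 25 had a lower and 16 a higher mean, with a median log2 fold change of -0.11. The 2 genes are 4.88% of the 41, near the 4.46% over all genes tested, and the 25 are 61.0%, beside 53.5%. The interferon genes *Ifna1*, *Ifna4*, *Ifnb1* and *Ifng* were listed at 0 in every mouse and *Ifna2* only at 0.436 FPKM in WT replicate 3. The chemokine *Cxcl9* was listed at 0 in every mouse, and *Cxcl10* and *Cxcl11*, which follow strong interferon signals, at no more than 0.987. RNA of the interferon genes read here was at or below the limit of detection at this depth. *Ifnl2* and *Ifnl3* were not found, and other interferon genes were not read.

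The 2 genes of that list under 0.05 were *Ticam1*, the adaptor TRIF of the RNA sensor TLR3, and *Eif2ak2*, the RNA-activated kinase PKR. *Ticam1* had 6.81, 7.12 and 5.84 FPKM among WT mice, next to 1.603 and 3.37 among Ins2AKITA mice, a log2 fold change of -1.17 (SE 0.35, limma p 0.0154 without adjustment). *Eif2ak2* had 11.2, 12.6 and 11.1 FPKM among WT mice, next to 6.29 and 7.42 among Ins2AKITA mice, a log2 fold change of -0.69 (SE 0.24, limma p 0.0257 without adjustment). Both genes, picked by their unadjusted p, separated the genotypes, and both had an adjusted p of 0.896. Of the 41 genes tested from that list, 8 (19.5%) had both Ins2AKITA values below all WT values and 0 had both above. Over all genes tested these shares were 10.3% and 9.24%. *Jak1*, a kinase of both interferon receptors, had a log2 fold change of 0.14 (SE 0.22). Of the 10 genes of class I loading and control, 8 had a lower mean in Ins2AKITA, with a median log2 fold change of -0.17. The 10 include *Pdia3*, a disulfide isomerase of the loading complex, at -0.41 (SE 0.18) and *Nlrc5*, the class I transactivator, at 0.28 (SE 0.48).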

How the data were processed

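RNA of brain microvascular fragments from 3 WT and 2 Ins2AKITA mice was sequenced, with 1 library per mouse. The authors depleted ribosomal RNA, made stranded total RNA libraries, mapped reads to NCBIM37 with TopHat2 2.0.4, filtered duplicates with Picard 1.92 and used Cufflinks 2.2.1, as the submitters' notes list them. They deposited 1 FPKM table per mouse. The program behind the values of single mice and its strand setting are not given in the sources used here. Filtering duplicates can lower short, abundant genes such as *B2m*, and FPKM inflates genes shorter than a fragment.

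GENCODE vM1 held 37197 of 37982 identifiers, and rows of a shared symbol were summed. Log2(FPKM + 1) was fitted with limma 3.58.1 (R 4.3.3, lmFit, eBayes with trend, genotype as the 1 factor, two-sided) for the 16286 symbols averaging 1 FPKM or more. The same fit was also run on simulated data, with an outcome not given here. Adjusted p is Benjamini-Hochberg over all 16286. The p-values rest on the spread between these mice, which eBayes draws toward that of other genes of like level. Fragments were estimated from FPKM steps and exon length, with 97.5% to 98.1% of low values whole within 0.05, and cover counting error only. Since FPKM is not a count, no count model was used. Other steps used Python 3.11.15.

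The genes and lists were chosen with earlier results of these data known. The rule for named genes took the 3 most abundant of each role and every gene with an unadjusted p under 0.05 or with genotypes that did not overlap, 23 in all. Other genes were named after their values were seen. The replicate numbers name no shared litter, so they were not used as a block in the reported fit.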

Additional observations from a re-analysis of the deposited data

How the results depend on the processing

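With 2 Ins2AKITA mice and 1126052 to 2854100 estimated fragments per library, genes of a few FPKM rest on few fragments. No gene of the 42 that was tested passed an adjusted p of 0.05 under a pseudocount of 0.1, no filter, a minimum FPKM of 5, quantile or median-ratio scaling, the highest identifier per symbol, the replicate block, or with any 1 mouse left out. The 4 calls over all genes became 2 with no filter and 2 with the filter at 5. The median log2 fold change of the 42 genes moved from -0.36 to -0.26 with quantile scaling, where *Ifih1* turned to 0.068. The 10 genes with both Ins2AKITA values below all WT values became 3 after division by the endothelial sum. The share over all genes tested fell likewise, from 10.3% to 2.70%. The alternatives to the count of 10 were chosen after seeing the data. The cause of these changes was not tested.

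With the replicate block, 5 genes were called over all genes and 0 of the 42, whose smallest adjusted p was 0.603 and median -0.36, and *Ifnar1* turned to 0.012 and *Psmb8* to -0.16. WT replicate 3 has no Ins2AKITA mouse of the same number, so it adds nothing to the fold changes of that fit. They equal those of the fit without WT replicate 3. Same-numbered mice deviated with correlations of 0.051 and -0.034, but with 2 Ins2AKITA mice these values cannot show or exclude pairing. The numbers name no shared litter, so they were not taken to pair the mice. The block changed no adjusted call among the 42 genes, but among the genes named by rule, without adjustment, *H2-D1* (limma p 0.0626) and *Xaf1* (0.114) no longer lay under 0.05 and *Ifi35* (0.00888) did.

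With 1 mouse left out, calls over all genes ranged from 2 (without WT replicate 2) to 11 (without Ins2AKITA replicate 2), and 0 to 0 of the 42 genes were called. Between 29 and 36 of the 42 had a lower mean, and their median ranged from -0.45 to -0.21. The genes with both Ins2AKITA values below all WT values ranged from 14 to 20 and those above from 1 to 5. The shares over all genes moved likewise, from 14.5% to 27.9% below and from 13.8% to 26.1% above, since fewer mice have to be separated. With an Ins2AKITA mouse left out, the lone mouse is assumed to vary like the WT mice. Fold changes with 1 mouse left out were computed for the 23 genes named by rule, and the direction turned in 8 of these: *Ifnar1* (-0.55 to 0.35), *Ifngr1* (-0.099 to 0.091), *Irf1* (-0.47 to 0.12), *Irf9* (-0.44 to 0.10), *Ifih1* (-0.26 to 0.13), *Trim25* (-0.37 to 0.063), *Psmb8* (-0.47 to 0.54) and *Zbp1* (-0.28 to 0.66). Among these 8 it turned without WT replicate 2 in 6, without Ins2AKITA replicate 2 in 4, without WT replicate 3 in 2 and without WT replicate 1 in *Zbp1*. In all, 155 values kept their direction and side of the threshold or moved little under the other settings and 3 turned.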
